A study of Mus musculus with 20 samples.

Results

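In fibroblasts that lack heat shock factor 1, 7 of 15 tubulin genes, 12 of 49 genes of the actin cytoskeleton, 8 of 48 genes of mitosis and 5 of 29 genes of the endoplasmic reticulum chaperones and unfolded protein response were called lower at 3 to 8 h of heat shock than at 0.5 to 2 h, where 2.9% of all genes were. The other members of these lists did not pass the test, and without centring of the arrays the counts were 4, 7, 5 and 1. The inducible HSP70 gene Hspa1a lay between -2.84 and -1.94 on all of these arrays, with no call between the windows. The comparison sets 4 late arrays (3, 4, 6 and 8 h) of HSF1 -/- mouse fibroblasts, called KO here, against 3 early arrays (0.5, 1 and 2 h) of the same cells. These 7 arrays were chosen by their labelled genotype and time, out of 20 arrays in all. The other arrays are the 3 unheated KO arrays (0 h) and 10 arrays of HSF1 +/+ fibroblasts, called WT here, at the same times. Each dual-colour array set the Cy5-labelled sample against a Cy3-labelled pool shared by all arrays, in which mRNA of unheated fibroblasts was mixed with mRNA of fibroblasts after 1 h of heat. A level is therefore a log2 ratio to that pool, after each array was centred on its median, and a difference is late mean minus early mean on that scale. On the unheated KO arrays 887 genes had a level over 1, and 21.6% of these were called lower late. The 2.9% given above is thus not a share over genes of like level. Strain, number of clones, temperature and any recovery before harvest are not given in the sources used here. Genotype cannot be told apart from other differences between the cell lines.

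HSF1 is the transcription factor that binds heat shock elements in promoters when unfolded proteins titrate chaperones away from it, and it drives the cytosolic chaperone genes. Cells also respond to heat without it, through immediate early genes, through changes in transcription and mRNA decay, and through loss of cytoskeletal structure. The KO series follows the transcripts that change without this factor.

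Each heated time has 1 array, and a window therefore pools different times, whose changes add to its spread. Separate cultures are not stated in the labels, and the p-values speak only for the variation among these particular arrays, which may be technical. Image numbers in the labels fell strictly with time in both genotypes, so image number and time cannot be told apart. Whether image numbers follow the order in which arrays were hybridised or scanned is not stated. The 7 KO arrays correlated with r of 0.79 to 0.802 within the early window, 0.725 to 0.811 within the late window and 0.495 to 0.783 between windows, across 32290 probes. The width of the value distribution (median absolute deviation) was 0.917, 0.965 and 1.11 on the early arrays and 0.744, 0.851, 0.704 and 0.682 on the late arrays. The mean width was lower late (difference -0.252), and the exact two-sided permutation p of 0.0571 is the smallest that 4 against 3 arrays can give. Fibroblast markers had a median level of 0.97 to 1.05 on the early and 0.58 to 0.83 on the late KO arrays, above the median of all genes in both windows. The pool was itself made of fibroblast mRNA, so these ratios cannot check the cell type. The Hsf1 transcript was not analysed here, so the genotype labels were not checked on the targeted gene itself.

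Of 10625 genes tested with limma, 528 (4.97%) passed an adjusted p of 0.05, 220 (2.07%) higher and 308 (2.9%) lower in the late window. The rises had a median difference of 1.04 (0.48 to 3.05) and the falls of -0.78 (-2.11 to -0.48), where all genes had a median of 0.03. The late and early arrays did not overlap for 203 of the rises and 307 of the falls, beside 1053 (9.91%) of all genes above, 1453 (13.7%) below and 2506 (23.6%) in either direction. The number of calls rested on single arrays. It was 49 without the 0.5 h array, 111 without 1 h, 75 without 6 h and 59 without 8 h, and 425, 554 and 421 without 2, 3 and 4 h. In the 7 heated KO arrays alone 0 genes passed limma's threshold, with 2449 at an unadjusted p under 0.05. With 3 and 4 h as the late window 0 genes passed, with 1090 unadjusted, and with 6 and 8 h 626 passed. The balance moved with the scaling. Falls were 58.3% of calls as reported, 27.1% without centring (112 of 413) and 40.1% when arrays were brought to equal width (228 of 569). In the 13 alternatives that tested all 528 genes, at least 524 kept their direction. These alternatives reuse the same KO arrays, whose windows did not overlap for 203 rises and 307 falls. Leaving out or reweighting arrays could hardly turn such genes, so the count does not test their direction.

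The rises and the falls had different courses. Relative to the mean of the early arrays, the median of the rises was -0.19, -0.00 and 0.24 at 0.5, 1 and 2 h and 0.69, 1.02, 1.15 and 1.35 at 3, 4, 6 and 8 h. The median of the falls was 0.06, 0.01 and -0.09 in the early window and -0.68, -0.66, -0.91 and -0.92 in the late window. The rises thus climbed from array to array, and the falls stepped down between 2 and 3 h. That step lies at the border of the windows by which the genes were chosen. The width of the KO arrays also went from 1.11 to 0.744 there, and its part in the step was not tested. On the WT arrays the median of the falls was -0.12 at 2 h and -0.05 at 3 h. The genes were chosen on these same KO arrays, so their course in KO is a description. The WT arrays were not used in choosing them. There, 204 of the 220 rises (92.7%) were also higher late, with a median of 0.67. Of the 308 falls, 266 (86.4%) were lower, with a median of -0.27. The rises are not independent genes, as 58 of them hold probes whose profile is shared over all arrays, WT included (described below). The median WT difference of 616 such probes was 1.51, and the share and median of the rises without them were not computed. Among all genes in WT, 47.9% were higher and 52.1% lower. At an unadjusted p under 0.05, 151 of the rises and 103 of the falls went the same way in WT, but in WT itself 2 genes (0.0188%) passed the adjusted threshold, with 1527 (14.4%) at an unadjusted p under 0.05. This count was 175 without the WT 2 h array, 43 without WT 4 h and 622 with a slope per doubling of time, where KO had 709. The counts of 528 and 2 therefore do not measure how far the genotypes differ. The 2 genes, Slc12a7 and Cyb561d1, were not called in KO.

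**Figure D1:**
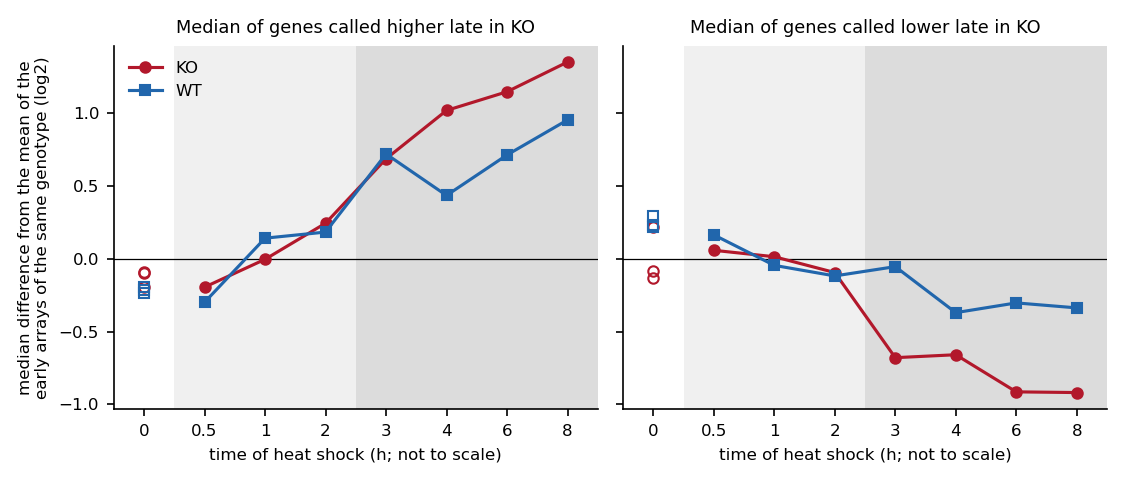
Median over the genes called higher (left, 220 genes) and lower (right, 308 genes) late in KO, on each array, as the log2 difference from the mean of the early arrays of the same genotype. Filled symbols are heated arrays by time, open symbols the 3 unheated arrays, red KO and blue WT, and the shaded bands are the early (light) and late (dark) windows. In KO the rises climb from -0.19 at 0.5 h to 1.35 at 8 h, while the falls drop from -0.09 at 2 h to -0.68 at 3 h. The genes were chosen by these windows in KO, and in WT the falls are at -0.12 at 2 h and -0.05 at 3 h.

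**Figure D2:**
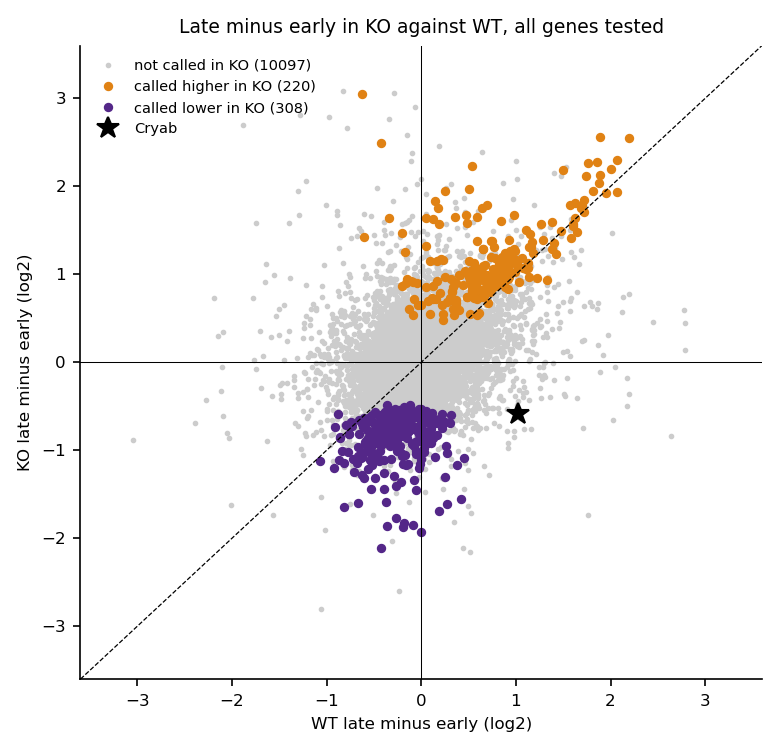
Late minus early difference (log2) of each tested gene in KO (vertical axis) against WT (horizontal axis), with the diagonal dashed. The 220 genes called higher in KO lie mostly to the right of 0 in WT and the 308 called lower mostly to the left. Cryab (star) is at -0.59 in KO and 1.03 in WT.

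The largest fall among the called genes was in Cxcr4, the receptor for the chemokine Cxcl12. Its level was 2.28, 2.59 and 2.00 at 0.5, 1 and 2 h and 1.21, 1.06, -0.53 and -0.99 at 3, 4, 6 and 8 h. The late arrays were all below the early ones, and the 6 and 8 h arrays were lowest. The difference was -2.11 ± 0.43 (SE, means of 4 late and 3 early arrays, limma adjusted p = 0.0158), a 4.30-fold fall. The SE of a gene, here and below, rests on a spread pooled over all groups of both genotypes, not on the KO windows alone. Without the 0.5, 1, 6 or 8 h array this call was lost, with adjusted p up to 0.0594. In WT the Cxcr4 difference was -0.42 ± 0.43. Its ligand Cxcl12 fell with it. Cxcl12 was at 2.14, 1.86 and 1.75 early and 0.94, 1.09, 0.39 and 0.67 late, a difference of -1.15 ± 0.20 (adjusted p = 0.01). This call was lost only without the 0.5 h array (adjusted p = 0.0501). The promoters of Ceacam9, Cbfa2t3 and Eif3k, also read among the largest rises and falls, held no heat shock element match and are not shown. The promoter of Cxcr4 is shown because it is the largest fall and holds a heat shock element match in a cell without HSF1. The window spans 250 bases before to 50 after the start, chr1:128592250-128592549 on the minus strand of GRCm38.p6 (RefSeq), 5′ to 3′, with matches to the TATA box and the heat shock element in capitals.
Cxcr4: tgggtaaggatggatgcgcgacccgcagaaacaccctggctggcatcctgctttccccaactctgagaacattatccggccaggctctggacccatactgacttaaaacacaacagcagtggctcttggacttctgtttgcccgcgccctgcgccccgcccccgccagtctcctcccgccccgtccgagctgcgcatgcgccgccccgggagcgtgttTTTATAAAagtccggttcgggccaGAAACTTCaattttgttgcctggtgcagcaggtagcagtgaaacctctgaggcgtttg

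Promoter windows of this length were read for 174 of the rises, 252 of the falls and 8555 of all tested genes. The motifs were searched on both strands, as GAANNTTC or TTCNNGAA for the heat shock element, TGACGTCA for the cAMP response element, TGANTCA for the AP-1 site, TATAAA for the TATA box, CCAAT for the CCAAT box and CACGTG for the E-box. A gene with several windows counted once if any of them held the motif. The heat shock element was in 21.3% of the rises, 12.3% of the falls, 14.1% of the tested genes and 15.1% of all 32851 windows. The cAMP response element was in 1.15%, 4.37% and 3.42% of rises, falls and tested genes. The AP-1 site was in 7.47%, 5.56% and 6.99%, and the TATA box in 13.2%, 12.7% and 10.6%. The CCAAT box was in 38.5%, 47.2% and 43.2%, and the E-box in 12.6%, 13.5% and 11.3%. Of all windows, 1.79% held the cAMP response element, 7.81% the AP-1 site, 13.6% the TATA box, 37.4% the CCAAT box and 7.15% the E-box. These shares describe letters in the windows, and no difference between them was tested.

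The call with the smallest adjusted p among the largest falls was S100a11, a small calcium-binding protein. It was at 1.51, 1.00 and 0.60 on the early arrays and -0.51, -0.41, -1.08 and -1.18 on the late ones. The windows were separated by more than the spread within either. The difference was -1.83 ± 0.25 (adjusted p = 0.00468, a 3.55-fold fall), and S100a11 stayed past the threshold with any of the 7 arrays left out. In WT S100a11 was at 1.77, 1.46 and 1.16 early and 1.73, 1.20, 1.00 and 1.18 late, a difference of -0.19 ± 0.25. The difference between the genotypes, -1.64 ± 0.35, did not pass (adjusted p = 0.344). Golim4, a Golgi membrane protein, went from 1.89, 2.27 and 1.74 to 0.88, 0.87, -0.48 and -0.82 (-1.86 ± 0.35, adjusted p = 0.011). Sfrp2, a secreted antagonist of Wnt signalling, went from 2.32, 3.06 and 2.28 to 1.00, 1.09, 0.56 and 1.20 (-1.59 ± 0.27, adjusted p = 0.00918). Zfp362, a zinc finger protein, went from 1.67, 1.67 and 1.77 to -0.38, 0.81, -0.32 and 0.26 (-1.61 ± 0.26, adjusted p = 0.00918). All 3 kept their calls with any array left out, and each rests on 1 probe. In all, 21 falls and 6 rises passed with each of the 7 arrays left out in turn. Chosen after their values were seen, 3 more of these falls with several probes were Gas1 (-1.17 ± 0.17), a growth arrest protein of the cell membrane, Cd81 (-1.29 ± 0.23), a tetraspanin, and Calm2 (-1.12 ± 0.19), which encodes calmodulin.

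Other large falls rested on fewer values. Eif3k, a subunit of a translation initiation factor, fell by 1.93 on the log2 scale, but its 2 probes gave -3.58 and -0.28, and its level of 3.86 at 1 h stood above 0.77 at 0.5 h and 2.00 at 2 h. Igfbp3, which binds insulin-like growth factors, was at 2.99 at 1 h against 0.72 and 0.50 at 0.5 and 2 h, and its late values ran from -0.48 to 0.43 (-1.45 ± 0.41, adjusted p = 0.0497). Its probes gave -2.56 and -0.33. Fbxl5, Snx14 and Ccdc115 had a course like that of Cxcr4, with their lowest values at 6 and 8 h. Fbxl5 was at -0.25 and -0.70 there, Snx14 at -1.03 and -0.72 and Ccdc115 at -0.35 and -0.68. All 3 lost their calls without the 0.5, 1, 6 or 8 h array (adjusted p up to 0.124).

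**Figure D3:**
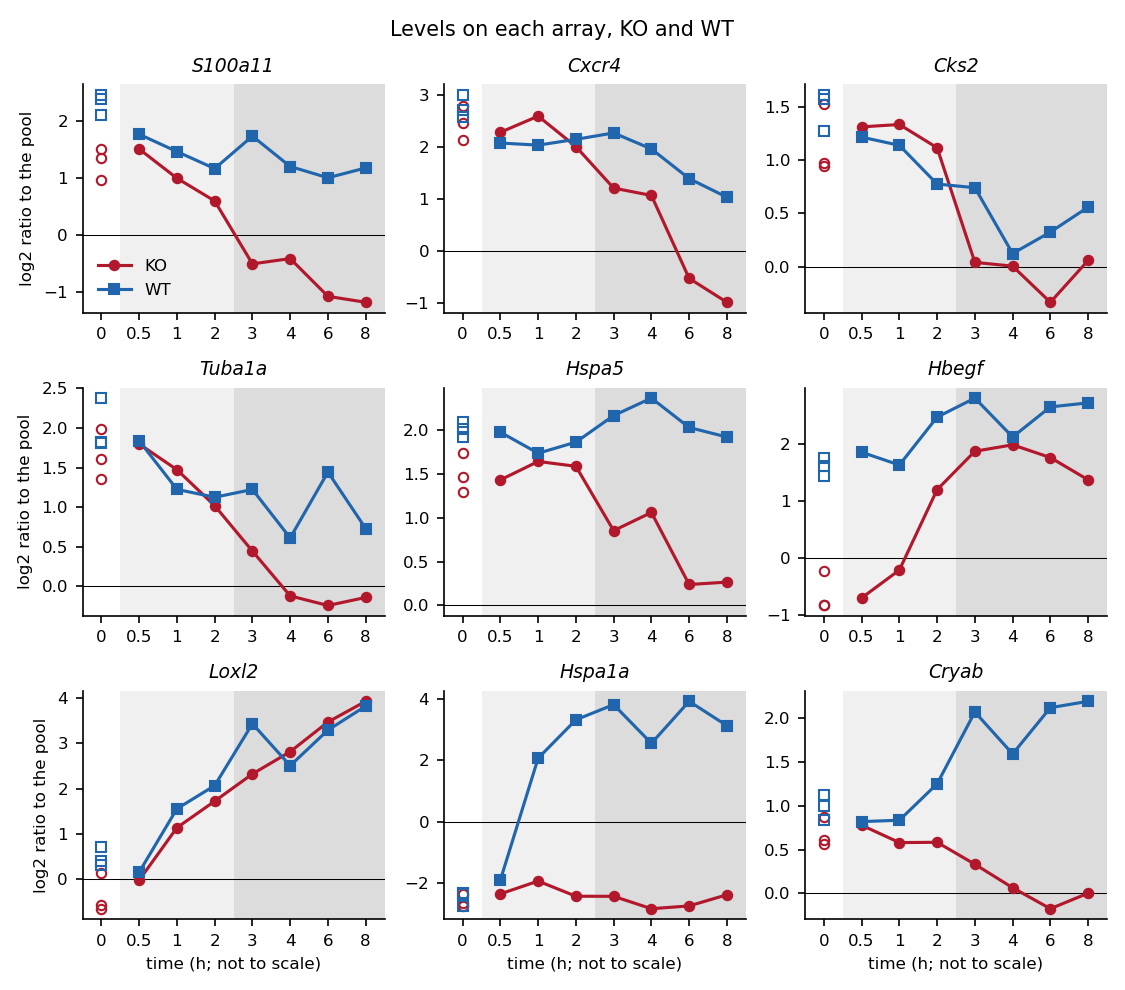
Levels (log2 ratio to the pool) of 9 genes on each array, KO in red and WT in blue, open symbols for the 3 unheated arrays and filled symbols for 1 array at each time. S100a11, Cxcr4, Cks2, Tuba1a and Hspa5 are lower late than early in KO, and S100a11 and Tuba1a also fall over the early arrays. Hbegf and Loxl2 are higher late, with Hbegf lowest at 8 h among its late arrays. Hspa1a stays between -2.84 and -1.94 on the heated KO arrays. Cryab is at 1.25 in WT and 0.58 in KO at 2 h, and the genotypes lie further apart from 3 h on.

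Among cytoskeletal genes, 7 of 15 tubulins (46.7%) and 12 of 49 actin cytoskeleton genes (24.5%) fell and 0 rose, beside 2.9% of all genes that fell. The tubulins, which polymerise into microtubules, had a median difference of -0.50, and the actin list one of -0.52. Both lists were high against the pool before heat, with median levels of 0.82 and 0.81 on the unheated KO arrays. Among all genes over 1 on those arrays 21.6% fell, and from 0.5 to 1 the share was 5.08%. The 2.9% is therefore not a share at like level. Without centring 4 tubulins and 7 actin genes were called, with medians of -0.35 and -0.37. At equal array width 6 and 11 were called, with medians of -0.49 and -0.40. In WT the medians were -0.43 and -0.23, and 0 members of either list were called there. Tuba1a was at 1.80, 1.47 and 1.02 early and 0.44, -0.12, -0.24 and -0.14 late (-1.44 ± 0.26, adjusted p = 0.011). Tuba1b fell by 1.64 and Tuba1c by 1.60 on the log2 scale. These alpha-tubulin genes are near-identical and can bind each other's probes, so they are not independent. Among beta-tubulins, Tubb5 fell by 0.85 and Tubb2a by 0.95. The alpha-tubulin levels moved down over the early arrays as well, so the difference of the windows is part of a course that starts before 3 h.

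Actb, cytoplasmic beta-actin with 13 probes, was at 2.15, 1.68 and 1.40 early and 0.95, 0.60, 0.47 and 0.83 late (-1.03 ± 0.22, adjusted p = 0.0184). Actg1, its gamma-actin relative, fell by 1.87 on 1 probe, and the pair can share probes. Palld, an actin-bundling scaffold, went from 1.48, 1.74 and 1.38 to 0.74, 0.64, 0.38 and 0.55 (-0.95 ± 0.18, adjusted p = 0.011). Cald1, which binds actin and tropomyosin, fell by 0.89, and Myl6, a myosin light chain, by 0.83. Srf, the factor that drives many actin genes, fell by 0.74 (adjusted p = 0.0486), and Rhob, a small GTPase that acts on actin, by 1.01. Without the 0.5 or 1 h array 1 and 0 actin genes and 0 and 2 tubulins were called, and without 6 or 8 h 2 and 1 actin genes and 3 and 2 tubulins. Without 2, 3 or 4 h 10 to 14 actin genes and 6 or 7 tubulins were called.

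Of the genes of cell division, 8 of 48 for mitosis and 7 of 50 for DNA replication fell, with 0 rises, where 2.9% of all genes fell. Without centring 5 and 3 were called lower, and at equal array width 9 and 4. Cks2 and Cks1b are small subunits that bind cyclin-dependent kinases. Cks2 was at 1.32, 1.34 and 1.12 early and 0.04, 0.00, -0.34 and 0.06 late (-1.32 ± 0.19, adjusted p = 0.00468). Cks1b was at 0.90, 0.88 and 0.91 early and 0.21, 0.07, -0.20 and -0.22 late (-0.93 ± 0.16, adjusted p = 0.00918). The windows of both genes did not overlap, and the 6 h array of Cks2 lay apart from its other 3 late arrays. Gmnn, geminin, the inhibitor of replication licensing, went from 1.47, 1.64 and 1.22 to 0.41, 0.22, 0.54 and 0.40 (-1.05 ± 0.18, adjusted p = 0.00918). These 3 genes kept their calls with any array left out. In WT the differences were -0.61 ± 0.19 for Cks2, -0.10 ± 0.16 for Cks1b and -0.52 ± 0.18 for Gmnn, with none called.

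Cdk1, the kinase of mitotic entry, fell by 0.88, Birc5, survivin, by 0.90, and Pttg1, securin, by 0.78. Of the genes that supply nucleotides, Tk1 went from 1.54, 1.47 and 1.26 to 0.12, 0.40, 0.16 and 0.19 (-1.20 ± 0.28, adjusted p = 0.0248). Rrm1, the large subunit of ribonucleotide reductase, fell by 1.07, and Pcna, the sliding clamp of DNA polymerases, by 0.76. The median over each list was smaller than these examples, -0.28 for mitosis and -0.15 for DNA replication, and the latter was -0.00 without centring, where all genes had a median of 0.17. WT medians were -0.25 and -0.19. Of 12 histone genes, most of which make the proteins that package DNA, 4 fell (33.3%), where 2.9% of all genes did: H3f3b, H2az1, H2az2 and H2ax. Without centring 2 histones were called. H3f3b, a replacement histone with 7 probes, went from 1.76, 1.80 and 1.40 to 0.87, 0.59, 0.21 and 0.36 (-1.14 ± 0.19, adjusted p = 0.00918), and its call held with any array left out. Without the 0.5 h array 2 mitosis genes, 1 DNA replication gene and 1 histone were called, and without 8 h 3, 1 and 1.

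The cytosolic chaperones are the classical targets of HSF1. Of 44 on the list, 2 fell (4.55%) and 0 rose, near the shares of all genes (2.9% and 2.07%), and without centring 0 were called. The median difference was -0.12, or 0.02 without centring. Hspa1a, inducible HSP70, was at -2.35, -1.94 and -2.43 early and -2.43, -2.84, -2.75 and -2.38 late (-0.36 ± 0.75, adjusted p = 0.82). Hspa1b ran from -2.23 to -1.79 over the same arrays. On the WT arrays Hspa1a was at -1.90, 2.07 and 3.32 early and 3.81, 2.55, 3.92 and 3.12 late. The KO windows overlapped, and in WT the level was low on the 0.5 h array alone. The SE of 0.75 pools the spread of all groups, these WT early arrays included. The missing call for Hspa1a therefore does not measure its spread in KO.

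Of the other cytosolic chaperones, all but St13 and Dnajb5 missed the threshold in KO. Hspa8, the constitutive HSP70, differed by -0.23 (adjusted p = 0.541), or 0.043 at equal array width. Hsph1, an HSP110, differed by -0.21 and Hsp90aa1, inducible HSP90, by -0.14, or 0.0090 without centring. Dnajb1, a J-domain partner of HSP70, differed by -0.15, and Hspb1, a small heat shock protein, by 0.78 ± 0.40 (adjusted p = 0.271). The WT differences of these genes were 0.46, 1.40, 0.83, 0.33 and 0.66. The 2 that fell were St13 (-0.58 ± 0.15), an HSP70-interacting cochaperone, and Dnajb5 (-0.76 ± 0.20). Both lost the call without the 0.5, 1, 6 or 8 h array, and Dnajb5 also without 3 h (adjusted p up to 0.169).

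Cryab, alphaB-crystallin, a small heat shock protein, was the only gene whose late minus early difference passed between the genotypes (1 of 10625, 0.00941%, with 826, 7.77%, at an unadjusted p under 0.05). In KO it was at 0.78, 0.58 and 0.58 early and 0.33, 0.06, -0.18 and 0.00 late, a difference of -0.59 ± 0.17 (adjusted p = 0.0555). In WT it was at 0.82, 0.84 and 1.25 early and 2.07, 1.59, 2.12 and 2.19 late, a difference of 1.03 ± 0.17 (adjusted p = 0.0524). The arrays of the windows do not overlap in either genotype, and they move in opposite directions. The difference of differences was -1.62 ± 0.24 (adjusted p = 0.0413). The call held without the KO 3 h, WT 2 h or WT 4 h array and was lost without any other single heated array. Its adjusted p ranged from 0.00755 to 0.644 over the alternatives, and with time as a block, which pairs KO and WT arrays of 1 time, it was 0.594.

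Of 29 genes for endoplasmic reticulum chaperones and the unfolded protein response, 5 fell and 0 rose, where 2.9% of all genes fell. The median was -0.46 in KO and -0.03 in WT. Without centring 1 of them was called lower and at equal array width 3, with KO medians of -0.31 and -0.34. Hspa5, the HSP70 of the endoplasmic reticulum, has 10 probes. It was at 1.43, 1.64 and 1.58 early and 0.85, 1.06, 0.24 and 0.27 late (-0.95 ± 0.19, adjusted p = 0.0152). In WT Hspa5 was at 1.97, 1.73 and 1.86 early and 2.16, 2.36, 2.03 and 1.92 late, a difference of 0.26 ± 0.19. The genotype difference of -1.21 ± 0.27 did not pass (adjusted p = 0.344). The disulfide isomerases Pdia6 and Txndc5 fell by 0.81 and 0.73, Manf, a secreted stress protein, by 0.62, and Sec61b, of the translocation channel, by 0.70. Ddit3, which encodes CHOP, differed by 0.01 (adjusted p = 0.988). All 5 calls rested on the same arrays: 0 were made without 0.5, 6 or 8 h and 1 without 1 h.

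The CCT chaperonin folds actin and tubulin, and prefoldin is its partner. Of their 13 genes 2 fell and 12 were below 0, with a median of -0.46. Among all 10625 genes, 2.9% fell and 5034 were below 0. Cct3 went from 1.36, 0.84 and 0.77 to 0.31, 0.14, 0.14 and -0.08 (-0.86 ± 0.17, adjusted p = 0.0126). Cct8 fell by 0.81. Of 15 mitochondrial chaperones and proteases only Grpel2, a nucleotide exchange factor for mitochondrial HSP70, passed. It was at 0.90, 1.09 and 1.04 early and 0.48, 0.39, 0.23 and 0.31 late (-0.65 ± 0.12, adjusted p = 0.011), a call kept with any array left out. In WT Grpel2 differed by 0.00 ± 0.12. Without the 0.5 or 8 h array 0 CCT genes were called.

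Energy and redox genes fell in part, beside 2.9% of all genes that fell and 5034 of 10625 below 0. Of 74 respiratory chain genes 7 fell and 67 were below 0 (median -0.44, in WT 0.05), among them Ndufb4 (-0.71 ± 0.17) of complex I and Atp5o (-0.75 ± 0.19) of ATP synthase. Without centring 0 of them were called, with a median of -0.29, and without the 0.5, 6 or 8 h array also 0. Of 29 antioxidant and metal response genes 5 fell, 2 without centring and 0 without the 0.5 h array. Prdx1, a peroxide-reducing peroxiredoxin, went from 1.77, 1.67 and 1.53 to 0.75, 1.01, 0.27 and 0.34 (-1.07 ± 0.19, adjusted p = 0.011). Txn1, thioredoxin, fell by 0.83 and Ftl1, the ferritin light chain, by 0.78. Hmox1, heme oxygenase 1, differed by -0.07, or 0.080 without centring, and the metallothioneins Mt1 and Mt2 by 0.31 and 0.61, none of them called. Of 21 glycolytic genes 2 fell, Ldha, lactate dehydrogenase A, by 0.88 and Pfkm, a phosphofructokinase, by 1.10.

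Of 63 cytosolic ribosomal proteins 0 passed and 60 were below 0, with a median of -0.26 in KO and 0.18 in WT, and at equal array width the KO median was 0.04. Among all 10625 genes, 5034 were below 0 and 2.9% fell. Of 62 splicing factors 6 fell, 3 without centring. Rbm3, an RNA-binding protein known for its induction by cold, went from 1.27, 1.27 and 0.99 to 0.26, 0.41, 0.10 and 0.25 (-0.92 ± 0.18, adjusted p = 0.0144). Srsf3 fell by 0.84 and in WT differed by -0.86. Of 39 proteasome subunits 1 fell, Psmb1, with a list median of -0.34. In the extracellular matrix list 5 of 63 fell, beside 2.9% of all genes, and 1 without centring. Another 1, Loxl2 (described below), rose, beside 2.07% of all genes. The falls include Lox, the collagen cross-linking oxidase, which went from 2.76, 3.30 and 2.84 to 2.14, 2.24, 1.88 and 1.83 (-0.94 ± 0.20, adjusted p = 0.0184). Thbs1, thrombospondin 1, fell by 0.74, and its WT difference was -0.91. Rbm3, Srsf3, Lox and Thbs1 lost their calls without the 0.5, 1, 6 or 8 h array (adjusted p up to 0.0809).

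**Figure D4:**
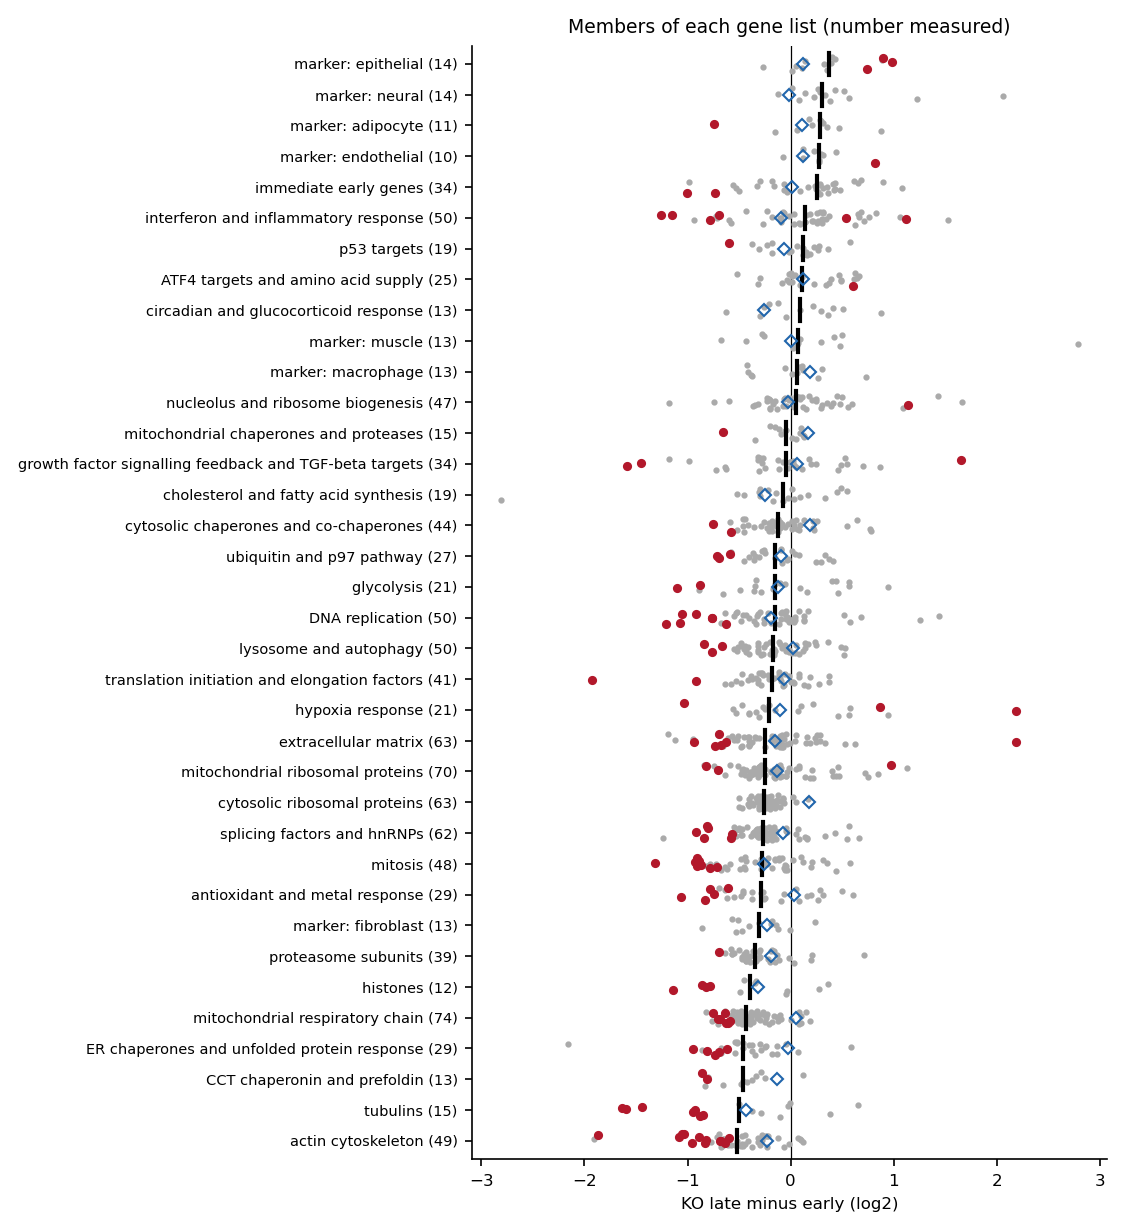
Late minus early difference (log2) of each measured member of 36 gene lists in KO. Grey points did not pass and red points passed an adjusted p of 0.05, black bars are the KO medians and blue diamonds the WT medians of the same lists. The actin cytoskeleton and tubulins are lowest (medians -0.52 and -0.50), and epithelial markers highest (0.37).

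The falls were concentrated among genes that were high against the pool before heat. By the unheated KO arrays, which are not part of the comparison, 192 of the 308 falls lay in the 887 genes with a level over 1 (21.6% of them fell) and 83 in the 1633 genes from 0.5 to 1 (5.08%). The median difference of the genes over 1 was -0.49, and that of the 821 genes under -1 was 0.39, of which 0 fell and 16 rose. With arrays brought to equal width these medians were -0.22 and 0.12. In WT, without that scaling, they were -0.22 and 0.12. The narrower late arrays described above thus move with this pattern, and their part in the falls of single genes was not tested beyond this scaling, under which 180 of the 308 falls and 184 of the 220 rises kept their calls. Median levels on the unheated KO arrays were 0.82 for tubulins, 0.81 for the actin list, 0.63 for mitosis and 0.43 for the endoplasmic reticulum list. All genes had a median of -0.07 there. Whether these lists fell more often than genes of like level was not tested.

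Among the rises, Hbegf is a growth factor that activates the epidermal growth factor receptor. It was at -0.70, -0.21 and 1.21 early and 1.88, 1.99, 1.77 and 1.38 late (1.66 ± 0.34, adjusted p = 0.0161, a 3.15-fold rise). Its 2 probes gave 1.56 and 1.75. The 2 h array stood near the late arrays, and the 8 h array was the lowest of the late ones. Without the 0.5, 1 or 6 h array the call was lost (adjusted p up to 0.0739). In WT Hbegf was at 1.86, 1.64 and 2.48 early and 2.82, 2.13, 2.66 and 2.73 late, above KO at every time, with a difference of 0.59 ± 0.34.

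Immediate early genes are a class that responds to stress within minutes. Of 34 of them 0 rose and 2 fell (Srf and Rhob, above), with a median of 0.26. Among all genes 2.07% rose and 2.9% fell. Egr1, a zinc finger factor, was at 0.87, 2.29 and 3.12 early and 2.66, 2.14, 2.99 and 3.18 late, where the unheated mean was -0.04. The windows overlap, with the 0.5 h array lowest, and the difference of 0.65 ± 0.44 did not pass (adjusted p = 0.417). Fos was at -0.76, 0.21 and 0.74 early and 0.64, 0.31, 0.49 and 0.55 late. Jun differed by 0.35, Atf3, a stress-induced repressor, by 0.61 and Ccl2, a monocyte chemokine, by 0.69, none of them called. Zfand2a, a proteasome partner induced by heat through HSF1, differed by 0.25 (adjusted p = 0.596).

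Other rises were spread over the lists. Among all genes 2.07% rose and 2.9% fell. Irf9, the DNA-binding part of the interferon-activated factor ISGF3, climbed from -0.34, 0.35 and 0.77 to 1.13, 1.33, 1.30 and 1.75 (1.12 ± 0.27, adjusted p = 0.0284). Irf7 rose by 0.54, while Cxcl12, Cxcl5, Gbp2 and Nfkb2 of the same list of 50 fell. Polr1b, the second largest subunit of RNA polymerase I, rose by 1.14 on 2 probes, and it was the only one of 47 nucleolar genes to pass. Car9, a carbonic anhydrase induced by hypoxia, rose by 0.87, Mrpl10, of the mitochondrial ribosome, by 0.97, and Yars, tyrosyl-tRNA synthetase, by 0.61. Their WT differences were 0.93 for Irf9, 0.89 for Polr1b, 0.79 for Car9, 1.14 for Mrpl10 and 0.35 for Yars. Without the 0.5, 1, 6 or 8 h array these 5 genes lost their calls, as did Car9 without 4 h and Yars without any 1 array (adjusted p up to 0.148). Chosen after their values were seen, Eid3 (1.68 ± 0.25), Crlf2 (1.64 ± 0.27) and Atp6v0a2 (1.26 ± 0.20) were rises that passed with any array left out. Crlf2, a cytokine receptor subunit, was at -2.66, -2.34 and -1.87 early and -0.54, -0.87, -0.71 and -0.46 late in KO, and its WT difference was -0.34.

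The 12 largest rises each rested on 1 probe, as did 142 of the 220 rises, 97 of the 308 falls and 5182 of the 10625 genes. The largest, Ceacam9 (3.05 ± 0.76), had no value at 0.5 h and was at -5.18 and -2.66 at 1 and 2 h and 0.28, -1.95, -0.78 and -1.04 late. Cbfa2t3 (2.50 ± 0.68) had no value at 2 and 3 h, and its 0.5 h value of -4.71 stood far below the rest. Scgb3a1 (2.24 ± 0.46) had none at 1 h. In WT these genes differed by -0.63, -0.42 and 0.54. The other 9, Efhb, Kif28, Zfp12, Noxred1, 4732419C18Rik, Loxl2, 2210420H20Rik, Exo5 and Nol9, shared 1 course. Loxl2, a relative of Lox, was at -0.02, 1.14 and 1.72 early and 2.33, 2.82, 3.48 and 3.93 late in KO (2.19 ± 0.48, adjusted p = 0.0187). In WT Loxl2 was at 0.15, 1.56 and 2.07 early and 3.44, 2.51, 3.30 and 3.83 late (2.01 ± 0.48). Kif28, a kinesin-like gene, was at -0.69, 0.62 and 1.28 early and 2.09, 2.48, 3.48 and 3.77 late in KO. Both genotypes climbed with time, and the WT arrays dipped at 4 h in both genes. Without the 0.5 or 8 h array the calls of all 9 were lost (adjusted p up to 0.104).

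The profiles of these 9 genes over the 20 arrays correlated pairwise with r of 0.925 to 0.996. Among 32290 probes with a value on every array, 616 others had r over 0.95 with the mean of the 9, and 2 had r under -0.95. Of the 616, 479 had no gene name, 124 had 1 and 13 had several. Their median difference was 1.64 in KO and 1.51 in WT. Such probes were present in 58 of the 220 rises and in 0 falls, and 32 rises had no other probe. They were picked for likeness to large rises, and the lowest KO difference among the 616 was 0.666. Their absence from the falls thus largely follows from the choice. Of the 129 genes with such a probe, 84 had other probes too. The 160 other probes of these genes had a median r of -0.169 with the shared profile, beside -0.0344 for all probes, and a median difference of -0.14, against 1.5 for the probes with the profile. Probes of 1 gene thus gave different values. The probes share the 20 arrays, they were selected after their values were seen, and what they have in common was not tested.

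**Figure D5:**
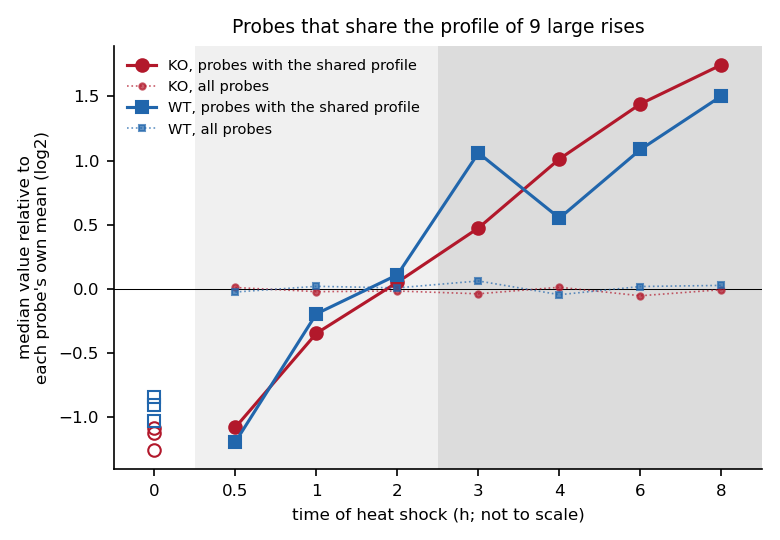
Median over the 616 probes that share the profile of 9 large rises, on each array, as log2 values relative to each probe's own mean (solid lines, KO red and WT blue, open symbols unheated), beside the median of all probes (dotted). The shared profile climbs from -1.08 at 0.5 h to 1.75 at 8 h in KO and starts at -1.19 in WT, where the 4 h array (0.55) lies below the 3 h array (1.06).

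Among markers of other cell types, 3 of 14 epithelial ones rose, where 2.07% of all genes did, Esrp1 (0.99 ± 0.23), Ocln (0.74 ± 0.20) and Cldn3 (0.90 ± 0.25), and 13 were above 0. Among all 10625 genes, 5591 were above 0 and 5034 below, and 2.9% fell. The median level of the epithelial list was -0.60 to -0.47 on the early and -0.35 to -0.27 on the late KO arrays. The median difference was 0.37, and 0.19 at equal array width, where 1 of them was called. With quantile normalization 1 epithelial marker was called, and without the 0.5, 1, 6 or 8 h array 0 were. Of 10 endothelial markers 1 rose, Sox18, and of 14 neural markers none, with 13 above 0. Of 11 adipocyte markers 1 fell, Fabp4 (-0.74 ± 0.18). The macrophage and muscle lists had 0 calls in 13 genes each. Levels are ratios to the pool, so no marker has a true 0, and the part of these markers in the rises was not tested. Of 13 fibroblast markers 0 were called and 12 were below 0 (median -0.31), with Col1a1 at -0.57 (adjusted p = 0.074). Fewer cells of a type and less RNA per cell cannot be told apart in these bulk samples.

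The remaining lists held few calls, beside 2.07% of all genes that rose and 2.9% that fell. Of 70 mitochondrial ribosomal proteins 1 rose and 2 fell, of 41 translation factors 2 fell, of 50 lysosomal genes 3 fell and of 27 ubiquitin and p97 genes 3 fell. Lipa, lysosomal acid lipase, fell by 0.76, and Ube2l3, a ubiquitin-conjugating enzyme, by 0.71. Of 19 p53 targets 1 fell, Ccng1, cyclin G1 (-0.59 ± 0.14). In growth factor and TGF-beta genes 1 of 34 rose and 2 fell, in hypoxia genes 2 of 21 rose and 1 fell, and of 25 ATF4 targets 1 rose. The hypoxia rises were Car9 and Loxl2, and the 1 probe of Loxl2 has the shared profile described above. Cholesterol synthesis (19 genes) and circadian genes (13) held 0 calls.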

How the data were processed

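The authors' deposited table gives, for each probe on each array, a sample-to-pool log ratio, treated here as log2. The log base is not stated. Its largest absolute value of 10.2 exceeds 4.82, the largest log10 ratio of 16-bit signals, but natural logs are not excluded, and folds would then be too small. For background correction and filters, the submitters' steps are not given in the sources used here. It has 42624 probes, 3.28% of values missing and 39037 to 42220 values per array. Of the probes, 21701 had 1 gene, 1124 several and 19799 none. Arrays were centred on the median. Probes with at least 2 values in each of 6 groups entered (20881), and a gene's value was the mean of its probes. Limma 3.58.1 (R 4.3.3; lmFit, eBayes) fitted all 20 arrays in 6 groups, with two-sided tests and Benjamini-Hochberg adjustment over 10625 genes. Errors are SE. The fit was tested on simulated data. Members, gene lists and naming rule (the 12 largest called rises and falls that do not overlap, per list the genes with the lowest p, called or not, at most 3, fixed stress genes) were chosen with earlier results of these data known. Other genes of lists were named as examples after their values were seen. Promoters come from RefSeq, GRCm38.p6.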

Additional observations from a re-analysis of the deposited data

Results flagged for a closer look

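Among 142 named genes with 4 late KO arrays, 8 had 1 array far from the other 3 (Dixon's gap over the group's range, past its critical value). Chance flags about 5% of groups. At 6 h Cks2 was low at -0.34, Rrm1 at 0.085, Rps27l at 0.12 and Bysl at 0.23. At 4 h Ccng1 was high at 0.77, Cd63 at 0.72 and Ddit3 at 1.12. At 3 h Trap1 was low at 0.25. Trap1, Rps27l, Bysl and Ddit3 were not called.

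The late minus early difference of Cryab differed between the genotypes by test, at -1.62 (KO minus WT, limma adjusted p = 0.0413). The call was lost with time as a block (adjusted p = 0.594), with quantile normalization (0.0638), at equal array width (0.0537), without centring (0.147) and without most single arrays.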

How the results depend on the processing

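For the KO late minus early difference, 954 genes passed with array weights, 155 with 1 and 2 h as the early window, 0 in the heated KO arrays alone and 0 with 3 and 4 h as the late window. Leaving out 1 array gave 49 to 554. The other alternatives stayed within 1.5 times the count of 528. For WT, where 2 genes passed, the count was 1 without centring, 9 with quantile normalization, 12 with probes measured on all arrays, 42 with array weights and 622 with a slope per doubling of time. It was 0 in the heated WT arrays alone, with 1 probe per gene, with 3 and 4 h or 6 and 8 h as the late window and with 1 and 2 h as the early window, and 0 to 175 with 1 array left out. For the difference between genotypes, where 1 gene passed, the count was 2 without centring and with 6 and 8 h as the late window. It was 0 with quantile normalization, equal array width, heated arrays alone, 1 probe per gene, and 3 and 4 h as the late window, and 0 to 1 with 1 array left out. The cause of these changes was not tested, apart from the fewer arrays in the leave-outs and narrower windows. Of the 528 genes called in KO, 524 kept their direction with 1 probe per gene, 526 in the heated KO arrays alone and 527 where 1 value per group was enough. These settings reuse the arrays on which the genes were called. A missing call in WT does not show that a gene did not change there.

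With time as a replicate block, 1 gene passed for the difference between genotypes, a different gene from Cryab. No paired analysis was possible for KO late against early because the windows share no time. The number of arrays, 1 per heated time, limits the precision of every difference.

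Of the named genes, 8 that were not called in KO changed sign in some alternative, and none of them was called with the opposite sign. Without centring, Hspa1b was at 0.089, Hsp90aa1 at 0.0090 and Hmox1 at 0.080. Hspa8 was at 0.043 at equal array width, and Dnajb1 at 0.19 in the heated KO arrays alone. Aen was at -0.15 with probes measured on all arrays and with 1 probe per gene. Hmox1 was at 0.25 with 3 and 4 h as the late window. With 6 and 8 h as the late window Hspa1b was at 0.0092 and Ddit3 at -0.17, and with 1 and 2 h as the early window they were at 0.0058 and -0.18. With 1 array left out, Ddit3 ranged from -0.19 to 0.74, Hmox1 from -0.28 to 0.048, Emcn from -0.066 to 0.74 and Hspa1b from -0.14 to 0.0058.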
